A study of Rattus norvegicus with 6 samples.

Results

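The genes described here present peptides to T cells in the rat major histocompatibility complex (MHC) system, called RT1. They are 10 of the 15645 genes that could be named on the array, and they were read on 24 of its 61537 probes. A probe was taken as a member when its accession belonged to RT1-Da, RT1-Ba, RT1-Bb, RT1-Db1, Cd74 or Ciita, the 6 class II genes, or to B2m, Tap1, Tap2 or Psmb8, the 4 class I genes. The tissue was kidney cortex of male Crl:CD(SD) rats, a Sprague-Dawley stock, bought at 5 weeks of age and labelled as 3 biological replicates per group. p-Nitroanisole, an aromatic nitro ether, was given to 3 rats over 4 weeks at a daily 500 mg/kg, and the other 3 were dosed with corn oil, the vehicle, over the same time. Each animal had 1 single-colour Agilent array, so the number of arrays limits the precision of every value.

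MHC class I molecules sit on nearly all nucleated cells. They carry peptides that the proteasome makes in the cytosol, that the Tap1-Tap2 transporter moves into the endoplasmic reticulum, and that bind a heavy chain paired with beta-2 microglobulin. Class II molecules are pairs of an alpha and a beta chain found mainly on dendritic cells, macrophages and B cells, and they carry peptides from endocytosed protein. Their assembly needs the invariant chain Cd74, and their transcription needs the coactivator Ciita. Interferon gamma induces both pathways, and in the kidney it can also induce class II molecules on tubule cells. Sprague-Dawley rats are an outbred stock, and MHC chain genes differ between haplotypes, so that a probe can match one allele better than another.

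The promoters of the members are shown because they carry the letters by which the pathways are usually told apart. Class II promoters hold an X box, bound by the RFX complex, upstream of a Y box, bound by NF-Y, and Ciita docks on both. Interferon-regulated class I pathway genes hold an element for interferon regulatory factors (IRF). RefSeq windows of 250 bases before to 50 after the start, on the build GRCr8, were found for 9 of the 10 members, all but Ciita. The array itself was designed on another build. The motifs were chosen after these windows had been read, and both strands were searched. The letters GCAAC stand for the core of the X box, GATTGG for the Y box, and GAAA, any 2 bases and GAAA for the IRF element. In the 9 windows 0 pairs of different motifs overlapped.

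In the class II stretches, capitals mark the X box core and the Y box. That of RT1-Da lies at chr20:4515321-4515376 on the plus strand, that of RT1-Ba at chr20:4576969-4577024 on the plus strand, that of RT1-Db1 at chr20:4560232-4560286 on the minus strand and that of RT1-Bb at chr20:4604169-4604228 on the minus strand.
RT1-Da: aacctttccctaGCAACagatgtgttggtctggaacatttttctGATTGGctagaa
RT1-Ba: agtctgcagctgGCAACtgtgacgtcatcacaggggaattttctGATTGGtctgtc
RT1-Db1: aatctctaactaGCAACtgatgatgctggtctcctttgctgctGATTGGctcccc
RT1-Bb: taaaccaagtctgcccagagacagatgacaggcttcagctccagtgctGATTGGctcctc

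The X box core and the Y box were 27 bases apart in RT1-Da, 27 in RT1-Ba and 26 in RT1-Db1. The core followed by a Y box within 10 to 40 bases on the same strand was thus in 3 of 5 class II windows, against 0 of 4 class I windows and 0.499% of all 27457 promoter windows. Y box letters alone were in 4 of 5 class II windows and in 1 of 4 class I windows, against 15.3% of all windows. The X box core alone was in 4 of 5 class II windows and in 1 of 4 class I windows, against 35.2% of all windows. RT1-Bb held the Y box letters without the core, and Cd74 the core without the Y box letters.

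In the class I stretches, capitals mark the IRF element. That of B2m lies at chr3:129549155-129549214 on the plus strand. Those of Tap1, Tap2 and Psmb8 lie on the minus strand at chr20:4668630-4668689, chr20:4652303-4652362 and chr20:4657001-4657060.
B2m: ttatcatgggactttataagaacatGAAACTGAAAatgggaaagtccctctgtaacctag
Tap1: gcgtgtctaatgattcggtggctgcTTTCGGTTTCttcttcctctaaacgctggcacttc
Tap2: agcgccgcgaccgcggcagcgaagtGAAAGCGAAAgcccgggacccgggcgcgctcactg
Psmb8: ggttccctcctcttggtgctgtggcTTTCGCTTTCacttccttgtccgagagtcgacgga

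The IRF letters were in 4 of 4 class I windows and 0 of 5 class II windows, against 3.77% of all windows, and run in the reverse sense in Tap1 and Psmb8. In the RefSeq annotation RT1-Da, RT1-Db1, RT1-Ba, RT1-Bb, Tap2, Psmb8 and Tap1 follow each other in that order on 1 chromosome, with RT1-Db2 and RT1-DOb as the other protein-coding genes among them. B2m, Cd74 and Ciita lie elsewhere. Such matches describe letters in these windows and not binding in the kidney.

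Levels are given as the log2 processed intensity minus the array's 75th percentile, so that 0 is the 75th percentile and each unit is a doubling. Levels of different probes are not comparable with each other. The test took the 41219 probes that stood well above background in every animal of 1 or both groups. The arrays had between 66.43% and 69.23% of probes well above background, and no spot was saturated. All 10 tested genes of the proximal tubule list, including Miox, the inositol-degrading enzyme of proximal tubule cells, and Slc13a3, a dicarboxylate transporter, were well above background on every array. P-nitroanisole replicate 3 was on a second slide and the other 5 arrays on slide 1, so a slide effect cannot be told apart from that animal. On slide 1 both treated arrays lay in row 2 and all 3 vehicle arrays in row 1, so in values from slide 1 alone row and treatment cannot be told apart. In whole cortex, fewer cells of a type and less RNA per cell cannot be told apart.

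Across the members, 22 of 24 probes, of 9 of the 10 genes, were tested, and limma called 0 of them at an adjusted p under 0.05, against 0.0728% of all tested probes (30 of 41219). At an unadjusted p under 0.05 there were 4 lower member probes, all of the class I pathway, and 0 higher ones, against 5.81% lower and 7.63% higher among all tested probes. Class I probes were lower with p-nitroanisole in 9 of 10, with a median log2 difference of -0.32. Class II probes were lower in 7 of 12, with a median of -0.03. The median over all tested probes was 0.01, and 48.3% of them were lower. In 5 of 10 class I probes and in 1 of 12 class II probes all 3 treated arrays lay below all 3 vehicle arrays, against 10.4% of all tested probes. Counted by the probe that stood for each gene, the groups overlapped in all 9 tested members. In 0 tested member probes did the treated arrays lie above the vehicle arrays, against 11.6%.

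**Figure D1:**
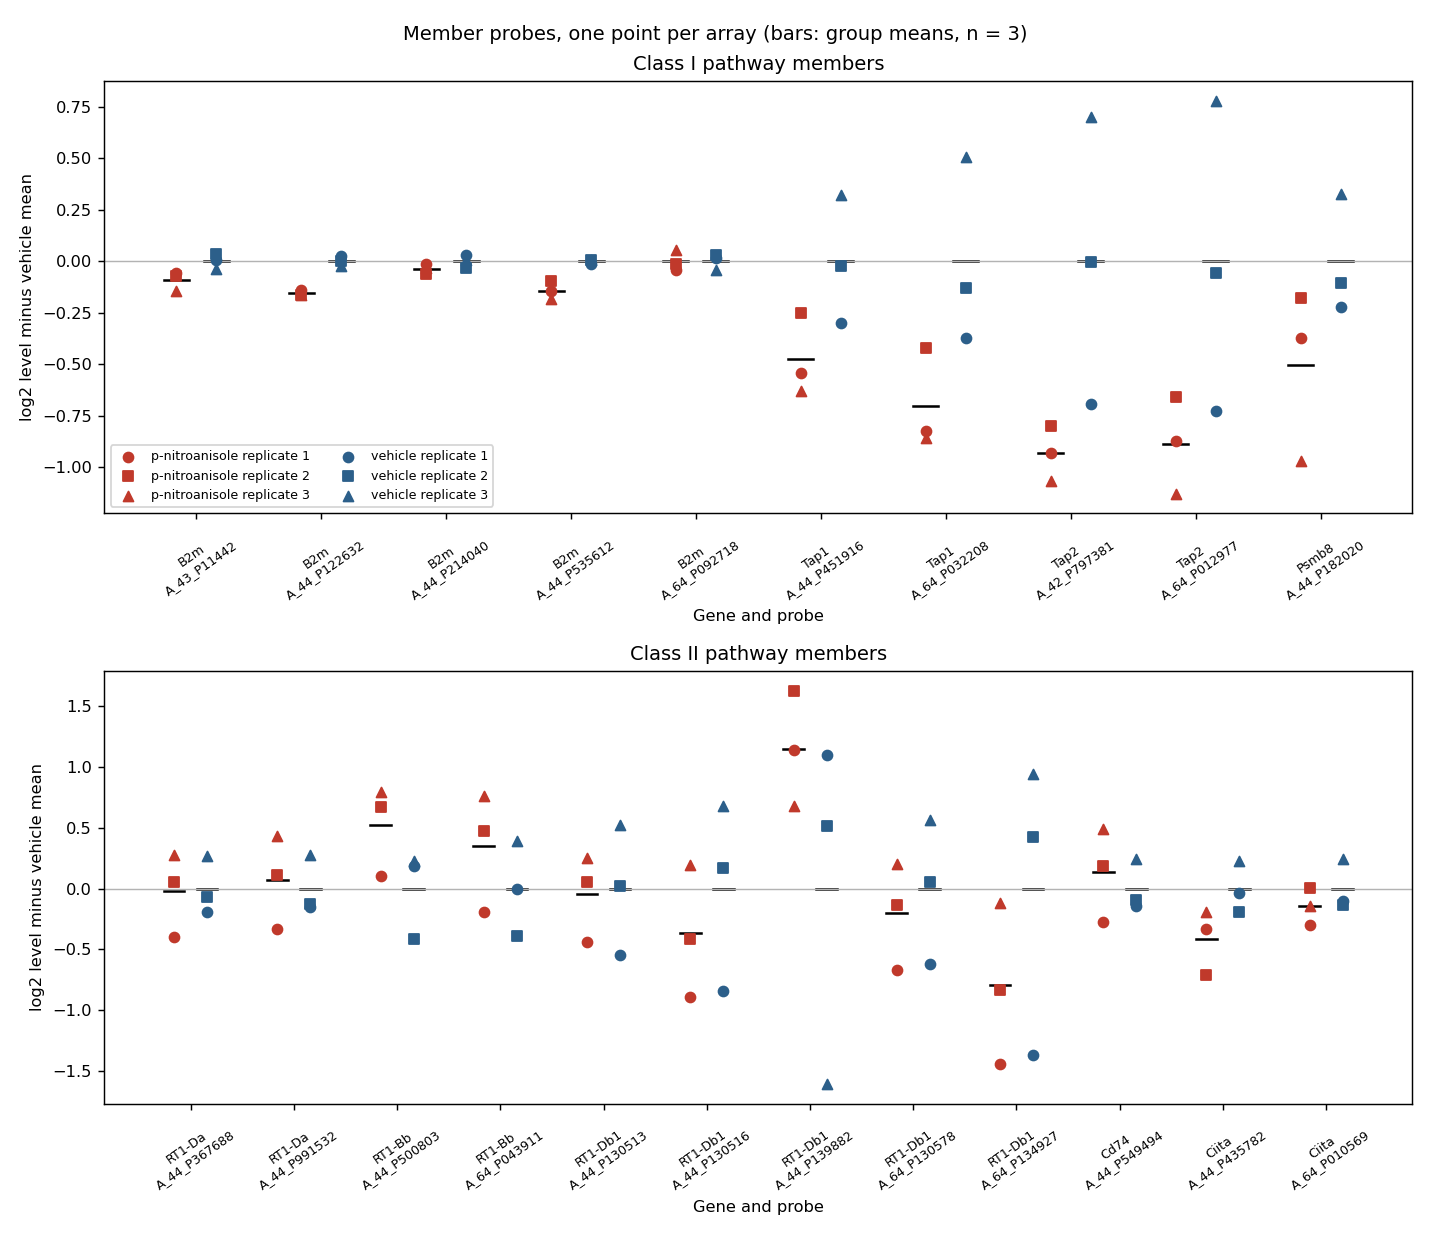
Log2 level of each tested member probe on each array, minus the vehicle mean of that probe, with p-nitroanisole arrays (red) left of vehicle arrays (blue), 1 marker shape per replicate and bars at the group means (n = 3). The group means of Tap1, Tap2 and Psmb8 are lower with p-nitroanisole, although treated replicate 2 lies above vehicle replicate 1 on 3 of their 5 probes, and the B2m points lie close together. The groups overlap in 11 of the 12 class II probes.

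The class II chains form 2 alpha and beta pairs. RT1-Da and RT1-Db1 encode the alpha and beta chains of the RT1.D molecule, and RT1-Ba and RT1-Bb those of the RT1.B molecule. On its brighter probe RT1-Da had levels of 2.56, 3.00 and 3.32 in p-nitroanisole rats, against 2.74, 2.76 and 3.16 in vehicle rats. Treated replicate 1 was the lowest of the 6 and treated replicate 3 the highest, and the groups overlapped throughout. The log2 difference was 0.07 (SE 0.22, 95% interval -0.47 to 0.61, limma adjusted p = 0.911). The second RT1-Da probe had levels of 0.51, 0.96 and 1.19 in p-nitroanisole rats, against 0.72, 0.84 and 1.17 in vehicle rats, in the same order within each group (log2 difference -0.02, SE 0.21).

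Cd74, the chaperone that fills the groove of new class II molecules, had levels of 5.01, 5.47 and 5.77 in p-nitroanisole rats, against 5.14, 5.19 and 5.52 in vehicle rats. Its order over the 6 arrays began and ended as that of RT1-Da did, with treated replicate 1 lowest and treated replicate 3 highest. The log2 difference was 0.13 (SE 0.22, adjusted p = 0.811), and its 95% interval ran from -0.40 to 0.66. Without treated replicate 3, which leaves the arrays of slide 1, it was -0.05.

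Ciita, the coactivator that switches class II genes on, was measured on 2 probes. The brighter probe had levels of -1.80, -1.49 and -1.64 in p-nitroanisole rats, against -1.60, -1.63 and -1.25 in vehicle rats (log2 difference -0.15, SE 0.13, adjusted p = 0.666). The dimmer probe had levels of -3.14, -3.52 and -3.00 in p-nitroanisole rats, against -2.84, -3.00 and -2.58 in vehicle rats. This was the 1 class II probe whose groups did not overlap, although treated replicate 3 and vehicle replicate 2 were equal to 2 decimals. Its log2 difference of -0.41 had an SE of 0.17 and an adjusted p of 0.377.

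Probes of the beta chains disagreed with each other. For RT1-Bb, probe A_44_P552452 read processed intensities of 4.21, 4.46 and 4.55 in p-nitroanisole rats, against 4.13, 7457 and 11243 in vehicle rats. It was well above background in vehicle replicates 2 and 3 and in none of the other 4 animals, and it was not tested. The other RT1-Bb probes did not show this. A_64_P043911 had levels of 2.63, 3.29 and 3.58 in p-nitroanisole rats, against 2.81, 2.43 and 3.20 in vehicle rats (log2 difference 0.35, SE 0.30, adjusted p = 0.641). A_44_P500803 had levels of 2.19, 2.76 and 2.89 in p-nitroanisole rats, against 2.28, 1.68 and 2.32 in vehicle rats (log2 difference 0.52, SE 0.25, adjusted p = 0.433). On both, vehicle replicate 2 was the lowest of the 6 arrays, whereas A_44_P552452 was bright there.

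RT1-Db1 had 5 probes. Its brightest by mean level, A_64_P130578, stood for the gene with levels of 2.20, 2.74 and 3.07 in p-nitroanisole rats, against 2.25, 2.92 and 3.43 in vehicle rats (log2 difference -0.20, SE 0.36, adjusted p = 0.829). A_64_P134927 had levels of 1.59, 2.20 and 2.92 in p-nitroanisole rats, against 1.67, 3.46 and 3.97 in vehicle rats, with vehicle replicates 2 and 3 above the other 4 animals (log2 difference -0.80, SE 0.66). A_44_P139882 ran the other way. Its levels were -1.36, -0.88 and -1.83 in p-nitroanisole rats, against -1.41, -1.99 and -4.11 in vehicle rats, with vehicle replicates 2 and 3 the lowest (log2 difference 1.15, SE 0.71). The remaining pair of probes differed by -0.05 (SE 0.31) and -0.37 (SE 0.45). Differences for this 1 gene thus ran from -0.80 to 1.15 depending on the probe, and none passed the test. Single arrays moved both ends, A_64_P134927 lying between -1.48 and -0.33 and A_44_P139882 between 0.35 and 1.70 when each array was left out in turn.

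The single RT1-Ba probe read processed intensities of 4.24, 4.50 and 4.03 in p-nitroanisole rats, against 4.16, 3.63 and 3.74 in vehicle rats. It was not well above background on any array, so RT1-Ba has only an upper bound here and was not tested, while its partner chain RT1-Bb was well above background on all 6 arrays on the other 2 of its probes. RT1-Ba and the bright-or-dim RT1-Bb probe account for all 10 of the 144 member spots that were not well above background. Whether the animals carry different RT1 haplotypes, which a probe could read as a difference in level, was not tested. Probes of RT1-Db1 and its near copy RT1-Db2 can also share sequence, so these genes are not told apart with certainty.

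**Figure D2:**
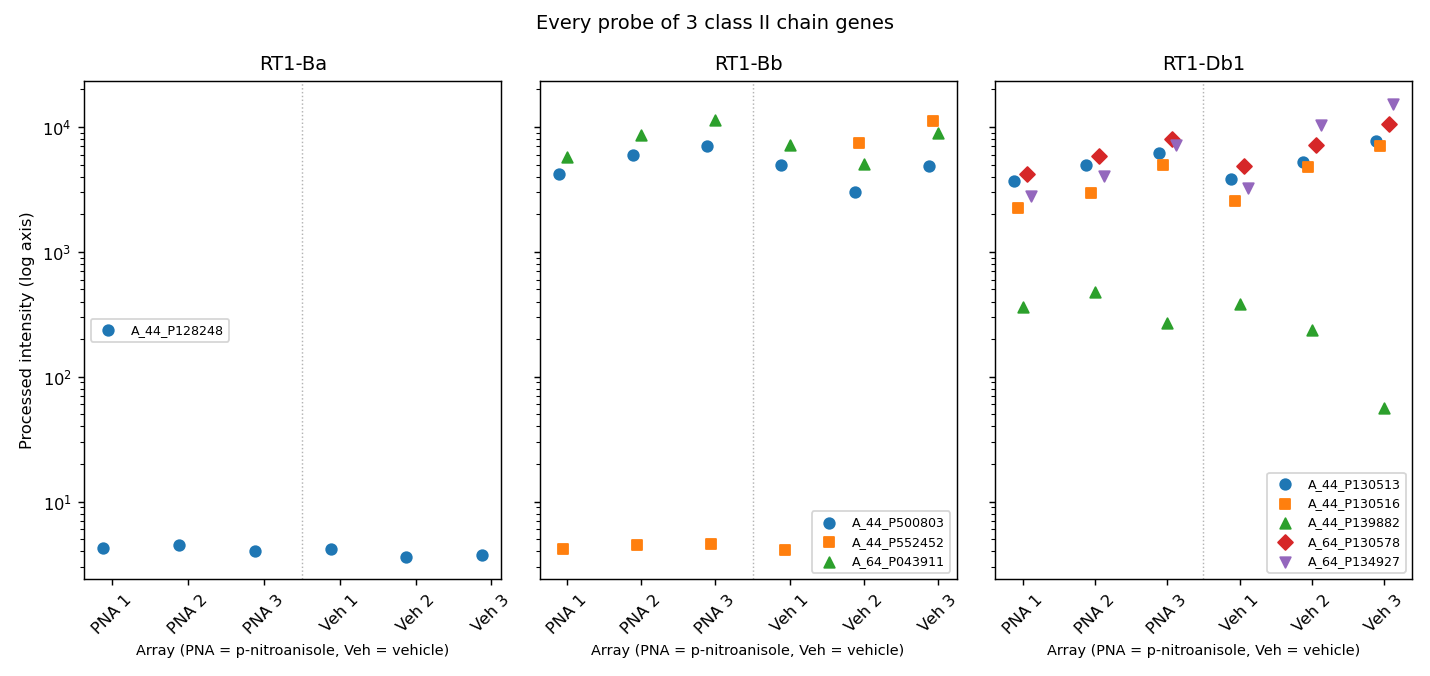
Processed intensity on a log axis of every probe of RT1-Ba, RT1-Bb and RT1-Db1 on each array, with p-nitroanisole arrays left of the dotted line and vehicle arrays right of it. A_44_P552452 of RT1-Bb reads 4.13 to 4.55 on 4 arrays and 7457 and 11243 on vehicle replicates 2 and 3, while the other RT1-Bb probes stay bright on all 6.

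The class II genes differed more among animals than between groups. Over the 12 tested class II probes, treated replicate 1 was the lowest of the 6 arrays in 7, vehicle replicate 3 was the highest in 6 and treated replicate 3 the highest in 5. The probe standing for each gene was centred on its vehicle mean. The median over the 5 tested genes was then -0.30, 0.11 and 0.43 on treated replicates 1, 2 and 3, against -0.15, -0.13 and 0.27 on the vehicle arrays. Both groups held low and high animals. The median log2 difference was 0.07, with 2 genes lower and 3 higher, against 49.1% lower among the 12207 tested named genes and their median of 0.00. Without treated replicate 3 it was -0.11 and without treated replicate 1 it was 0.27.

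Among the class I members Tap2 had the largest difference. This gene, for 1 of the 2 chains of the peptide transporter, had levels on its brighter probe of 0.54, 0.75 and 0.28 in p-nitroanisole rats, against 0.69, 1.36 and 2.19 in vehicle rats. Vehicle replicate 1 lay within the treated range, and vehicle replicates 2 and 3 lay above it. The log2 difference was -0.89 (SE 0.38, 1.85-fold lower, limma adjusted p = 0.390), -0.50 without vehicle replicate 3 and -1.25 without vehicle replicate 1. The other Tap2 probe had levels of -0.45, -0.32 and -0.59 in p-nitroanisole rats, against -0.21, 0.48 and 1.18 in vehicle rats. There the groups did not overlap, and the log2 difference was -0.93 (SE 0.34, adjusted p = 0.334).

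Tap1, the partner chain, was lower on both of its probes. The brighter had levels of -1.72, -1.42 and -1.80 in p-nitroanisole rats, against -1.47, -1.20 and -0.85 in vehicle rats (log2 difference -0.48, SE 0.18, 1.39-fold lower, adjusted p = 0.353). Treated replicate 2 lay above vehicle replicate 1. The dimmer probe had levels of -2.89, -2.49 and -2.92 in p-nitroanisole rats, against -2.44, -2.19 and -1.56 in vehicle rats. All treated animals lay below all vehicle animals (log2 difference -0.70, SE 0.25, adjusted p = 0.325), and this was the lowest adjusted p of any member probe.

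Psmb8, the immunoproteasome subunit that replaces the constitutive Psmb5, had levels of 0.71, 0.91 and 0.12 in p-nitroanisole rats, against 0.86, 0.98 and 1.41 in vehicle rats. Treated replicate 3 was far the lowest and vehicle replicate 3 the highest, while treated replicate 2 lay between vehicle replicates 1 and 2. The log2 difference was -0.51 (SE 0.24, 1.42-fold lower, adjusted p = 0.436). Within slide 1, without treated replicate 3, it was -0.27.

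B2m, the light chain of every class I molecule, varied little. Its brightest probe had levels of 7.53, 7.48 and 7.51 in p-nitroanisole rats, against 7.57, 7.51 and 7.54 in vehicle rats (log2 difference -0.04, SE 0.06, 95% interval -0.18 to 0.11). Over its 5 probes the differences lay between -0.16 and 0.00. In 3 of the 5 the treated arrays lay below the vehicle arrays, against 10.4% of all tested probes. These probes read the same gene in the same animals. The largest gap was on A_44_P122632, with levels of 5.17, 5.14 and 5.14 in p-nitroanisole rats, against 5.33, 5.31 and 5.28 in vehicle rats (log2 difference -0.16, SE 0.06, adjusted p = 0.333). The range over all 6 arrays was 0.09 to 0.19 for the B2m probes, against 0.95 to 1.91 for those of Tap1, Tap2 and Psmb8. B2m thus holds 5 of the 10 class I probes and 3 of the 5 without overlap, at small differences.

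**Figure D3:**
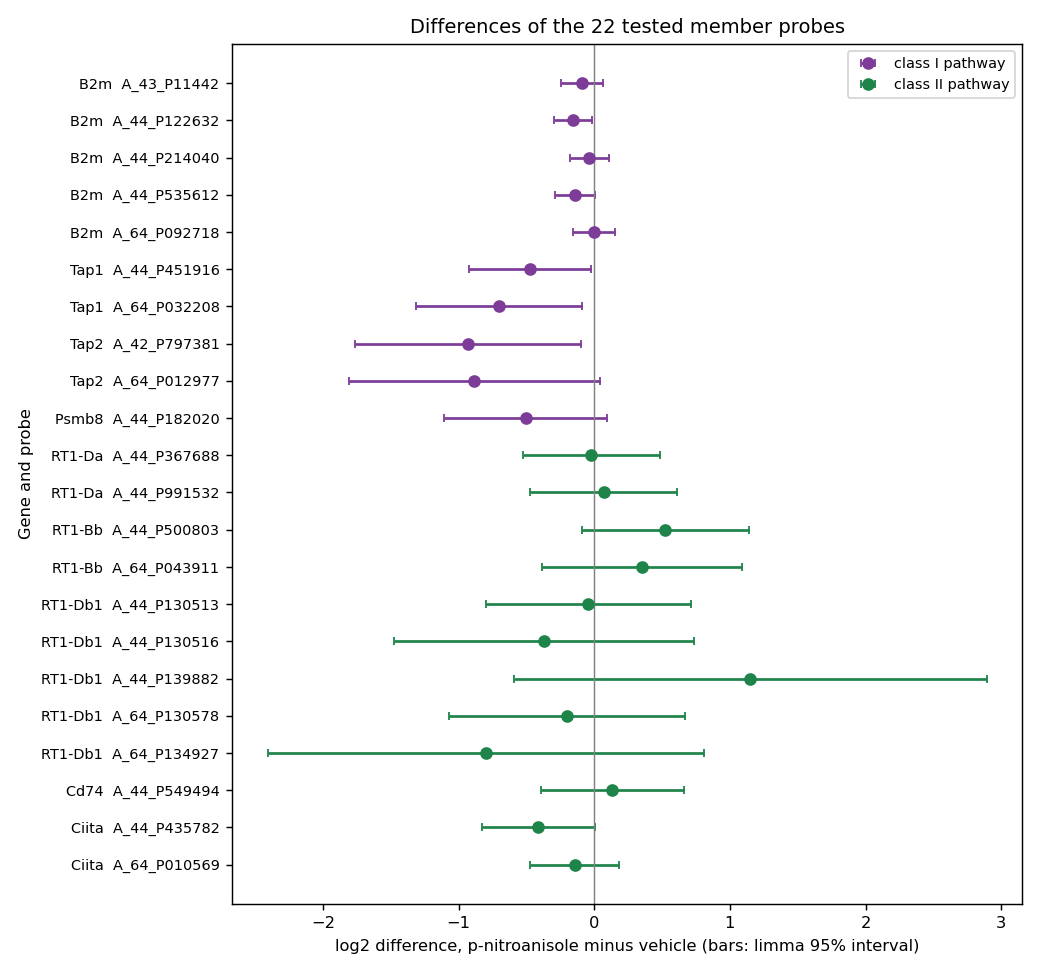
Log2 difference, p-nitroanisole minus vehicle, of each of the 22 tested member probes with its limma 95% interval (n = 3 per group), class I probes in purple above class II probes in green. Intervals of 4 class I probes lie below 0, and every class II interval includes 0.

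Set against each other, the pathways had medians by gene of -0.49 for class I (4 of 4 genes lower) and 0.07 for class II (2 of 5 lower). No test of this difference was made, because the members were chosen with earlier results of these data known. The animals ordered differently in each pathway. The class I median, centred on the vehicle mean, was -0.46, -0.21 and -0.80 on treated replicates 1, 2 and 3, against -0.26, -0.04 and 0.33 on the vehicle arrays. Treated replicate 3 was the lowest array in 8 of 10 class I probes and in 0 of 12 class II probes. In the class II median it was the highest array, while vehicle replicate 3 was high in both pathways. Without treated replicate 3 the class I median was -0.34, and without vehicle replicate 3 it was -0.33.

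Other genes of the class I pathway were lower in 10 of 17 tested, with a median of -0.10, which was -0.012 with normexp background correction and -0.047 without treated replicate 3. limma called 0 of them, with 2 lower and 2 higher at an unadjusted p under 0.05, against 6.22% lower and 7.7% higher among tested named genes. In 1 the treated arrays lay below the vehicle arrays and in 2 above, against 11.1% below and 12.3% above among tested named genes. The largest differences were in MHC heavy chain genes. RT1-S3 had levels of 1.34, 1.49 and 1.70 in p-nitroanisole rats, against 1.63, 2.40 and 2.74 in vehicle rats (log2 difference -0.74, SE 0.29, adjusted p = 0.355). RT1-CE10 had levels of 0.33, 0.49 and -0.52 in p-nitroanisole rats, against 0.42, -0.44 and -4.50 in vehicle rats (log2 difference 1.61, SE 1.27, adjusted p = 0.613, and 0.11 without vehicle replicate 3). On the first, as on Tap2, vehicle replicates 2 and 3 stood above the other 4 animals, and on the second vehicle replicate 3 stood far below all others.

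The same animals stood apart on a probe picked after its values were seen. RT1-A1 probe A_64_P032913 had levels of 2.92, 3.01 and 3.64 in p-nitroanisole rats, against 3.12, 4.13 and 4.55 in vehicle rats (log2 difference -0.74, SE 0.40), while the brighter RT1-A1 probe differed by -0.26 (SE 0.14). Heavy chain genes are near copies of each other, and their probes may share sequence. The other immunoproteasome subunits, Psmb9 and Psmb10, also named after their values were seen, differed by -0.35 (SE 0.20) and -0.14 (SE 0.10). Genes of peptide loading, all picked after their values were seen, ran both ways. Calr differed by 0.40 (SE 0.08, adjusted p = 0.149), Canx by 0.20 (SE 0.06) and Pdia3 by 0.19 (SE 0.12), while Tapbp differed by -0.14 (SE 0.11) and Tapbpl by -0.13 (SE 0.13). All treated arrays lay above all vehicle arrays for Calr and for the brighter Canx probe, and the groups overlapped on the other Canx probe.

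Constitutive proteasome genes served as the comparison for Psmb8. They were lower in 7 and higher in 7 of 14, with a median of -0.01. The range was from -0.11 (Psma7, SE 0.07) to 0.10 (Psmb7, SE 0.06). limma called 0, and 0 had an unadjusted p under 0.05, against 6.22% lower and 7.7% higher among tested named genes. In 1 of the 14 all treated arrays lay below all vehicle arrays and in 4 above, against 11.1% and 12.3%. Psmb5, named after its values were seen, was among those above (0.07, SE 0.06). Other class II pathway genes were lower in 9 of 14 tested, with a median of -0.07. limma called 0. At an unadjusted p under 0.05 there were 1 lower and 1 higher, against 6.22% and 7.7% of tested named genes. Ctss, the cathepsin that trims the invariant chain, had levels of 1.85, 2.06 and 1.68 in p-nitroanisole rats, against 2.08, 2.35 and 2.39 in vehicle rats (log2 difference -0.41, SE 0.13, adjusted p = 0.299). RT1-DOb, the beta chain of a modulator of peptide loading, differed by -0.34 (SE 0.43, adjusted p = 0.755). Ctss was the 1 gene of the 14 with all treated arrays below all vehicle arrays, against 11.1% of tested named genes. Ctsl, another cathepsin, named after its values were seen, was the 1 gene with all treated arrays above (log2 difference 0.27, SE 0.10, adjusted p = 0.343), against 12.3%. On its other probe the groups overlapped (0.20, SE 0.17).

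Interferon gamma signalling genes were lower in 14 of 20 tested, with a median of -0.12, and limma called 0. The list also holds Stat2, Irf7 and Irf9, which belong to the wider interferon response and not to interferon gamma alone. At an unadjusted p under 0.05 there were 6 lower and 1 higher, against 6.22% and 7.7% of tested named genes. In 5 of 20 the treated arrays lay below the vehicle arrays and in 2 above, against 11.1% and 12.3%. Irf7 and Irf9, the latter named after its values were seen, are among the lower genes in each of these counts. The 2 above, named after their values were seen, were Socs3, an inhibitor of cytokine signalling (0.37, SE 0.09, with 0.00 on its other probe), and Jak2, a kinase of the interferon gamma receptor (0.09, SE 0.06). Irf7, a transcription factor of the interferon response, had levels of 0.44, 1.07 and 0.88 in p-nitroanisole rats, against 1.75, 1.20 and 2.06 in vehicle rats (log2 difference -0.87, SE 0.26, adjusted p = 0.267). Cxcl9, a chemokine that interferon gamma induces, had levels of -3.79, -3.65 and -4.84 in p-nitroanisole rats, against -3.22, -2.11 and -3.10 in vehicle rats (log2 difference -1.29, SE 0.43, adjusted p = 0.303). The Cxcl9 probe was dim, and its difference lay between -1.51 and -0.56 under the 16 alternatives. Ifng itself was not well above background on any array.

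**Figure D4:**
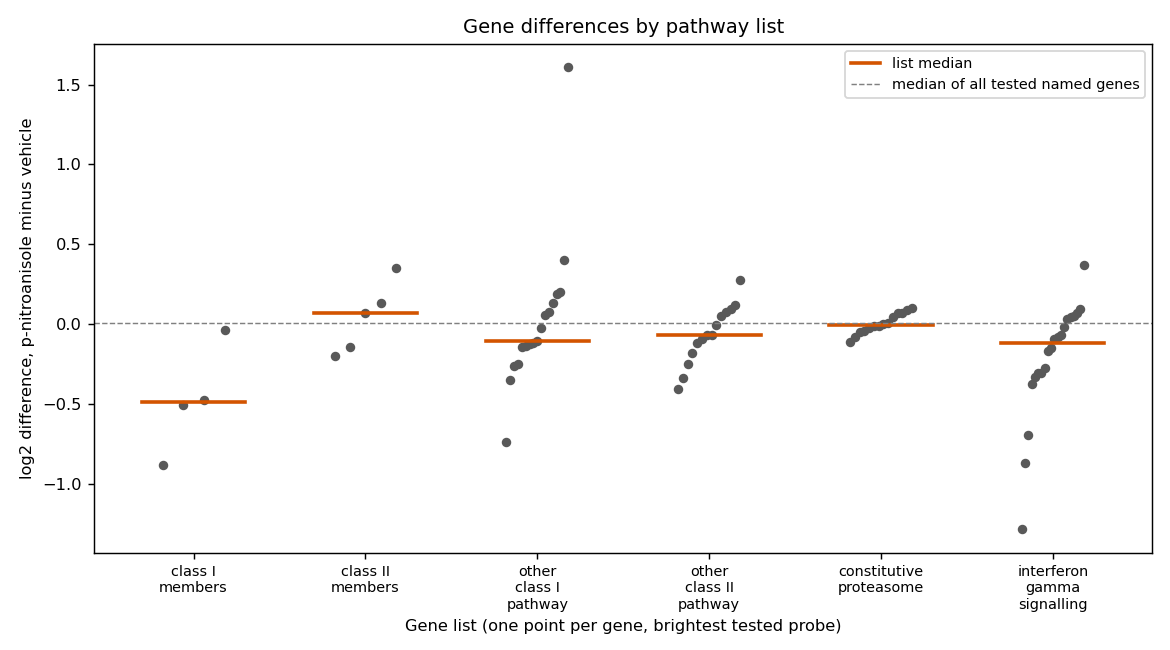
Log2 difference, p-nitroanisole minus vehicle, of each tested gene of 6 lists on its brightest tested probe, with orange bars at the list medians and a dashed line at the median of all tested named genes. The class I members have a median of -0.49, the class II members 0.07 and the constitutive proteasome genes -0.01.

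Markers of the cells that present antigen were read beside the members. Macrophage markers were lower in 8 of 10 tested, with a median of -0.23, among them C1qb, a complement subunit (-0.41, SE 0.14), and Aif1, a macrophage protein (-0.49, SE 0.23). Mrc1, the mannose receptor, had the largest difference of the list and was higher, by 0.52 (SE 0.18, adjusted p = 0.322) with all treated arrays above all vehicle arrays. Csf1r, a growth factor receptor of macrophages, differed by 0.01 (SE 0.09) on its brighter probe and by 0.32 (SE 0.12) on the other. Cd68, named after its values were seen, differed by -0.43 on each of its probes (SE 0.16 and 0.14). It was the 1 macrophage marker of 10 with all treated arrays below all vehicle arrays, as Mrc1 was the 1 above. The shares among tested named genes were 11.1% below and 12.3% above. The summed level of the macrophage markers, in multiples of the array's 75th percentile, was 19.7 to 29.4 on treated arrays, against 28.1 to 34.3 on vehicle arrays. Summed levels, here and below, are weighted towards the brightest probes of a list. They compare arrays and not lists. Markers shared by all leukocytes were lower in 5 of 6, with a median of -0.28. The exception was Cd52, named after its values were seen, at 2.22 (SE 0.27, limma adjusted p = 0.0714). Coro1a differed by -0.27 (SE 0.15) and Laptm5 by -0.25 (SE 0.11). In 5 of the 6 all treated arrays lay below all vehicle arrays and in 1 above, against 11.1% and 12.3% of tested named genes. At an unadjusted p under 0.05 there were 3 lower and 1 higher, against 6.22% and 7.7%. The summed level of these leukocyte markers was 13.2 to 16.8 on treated arrays, against 16.5 to 17.4 on vehicle arrays. T and NK cell markers were lower in 13 of 14, with a median of -0.25, which was -0.053 with normexp background correction and -0.15 without treated replicate 3. They summed to 3.58 to 4.05 on treated arrays, against 4.04 to 4.40 on vehicle arrays. Cd3d, a chain of the T cell receptor complex, differed by -0.14 (SE 0.18). Klrk1, an NK cell receptor, differed by 0.14 (SE 0.15) on its brightest probe, and by -0.67 (SE 0.53) and -0.95 (SE 0.55) on its others. Gzmb and Cd4, both named after their values were seen, were the 2 of 14 genes with all treated arrays below all vehicle arrays. The share among tested named genes was 11.1%. Gzmb had the largest difference of the list, at -0.999 (SE 0.22, limma adjusted p = 0.174), and Cd4 differed by -0.39 (SE 0.11). In 0 of the 14 did the treated arrays lie above, against 12.3%. At an unadjusted p under 0.05 there were 3 lower and 0 higher T and NK cell markers, against 6.22% and 7.7%. In these 3 lists treated replicate 3 had the lowest median of the 6 arrays, as it had in the class I members. It was also the lowest in the other class I genes (-0.16) and the interferon gamma signalling genes (-0.18). In the class II members and the remaining lists another array was the lowest.

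Dendritic cell markers were lower in 3 of 6 tested, with a median of -0.04 and summed levels of 1.09 to 1.28 on treated arrays, against 1.15 to 1.25 on vehicle arrays. Batf3 had the largest difference, at -0.43 (SE 0.22, adjusted p = 0.451), with all treated arrays below all vehicle arrays, while its other probe differed by -0.23 (SE 0.18). Cd86 differed by -0.18 (SE 0.16), Cd83 by 0.03 (SE 0.11) and Clec9a by 0.19 (SE 0.15), while Xcr1 and Cd80 were not well above background on any array. Of the B cell markers only 3 were tested, with summed levels of 1.59 to 2.70 on treated arrays, against 1.56 to 2.16 on vehicle arrays. Pax5 differed by 0.11 (SE 0.25), while Blk and Cr2 were not well above background on any array. Tubule markers had medians of 0.04 for the proximal tubule (8 of 10 higher, but -0.063 with quantile scaling and -0.011 with median scaling) and -0.06 for distal nephron and glomerulus (5 of 7 lower). Among them Miox differed by 0.01 (SE 0.07), Slc13a3 by 0.14 (SE 0.07), Umod by 0.13 (SE 0.14) and Aqp2 by -0.11 (SE 0.10). The part of any of these cells in the class I differences was not tested.

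**Figure D5:**
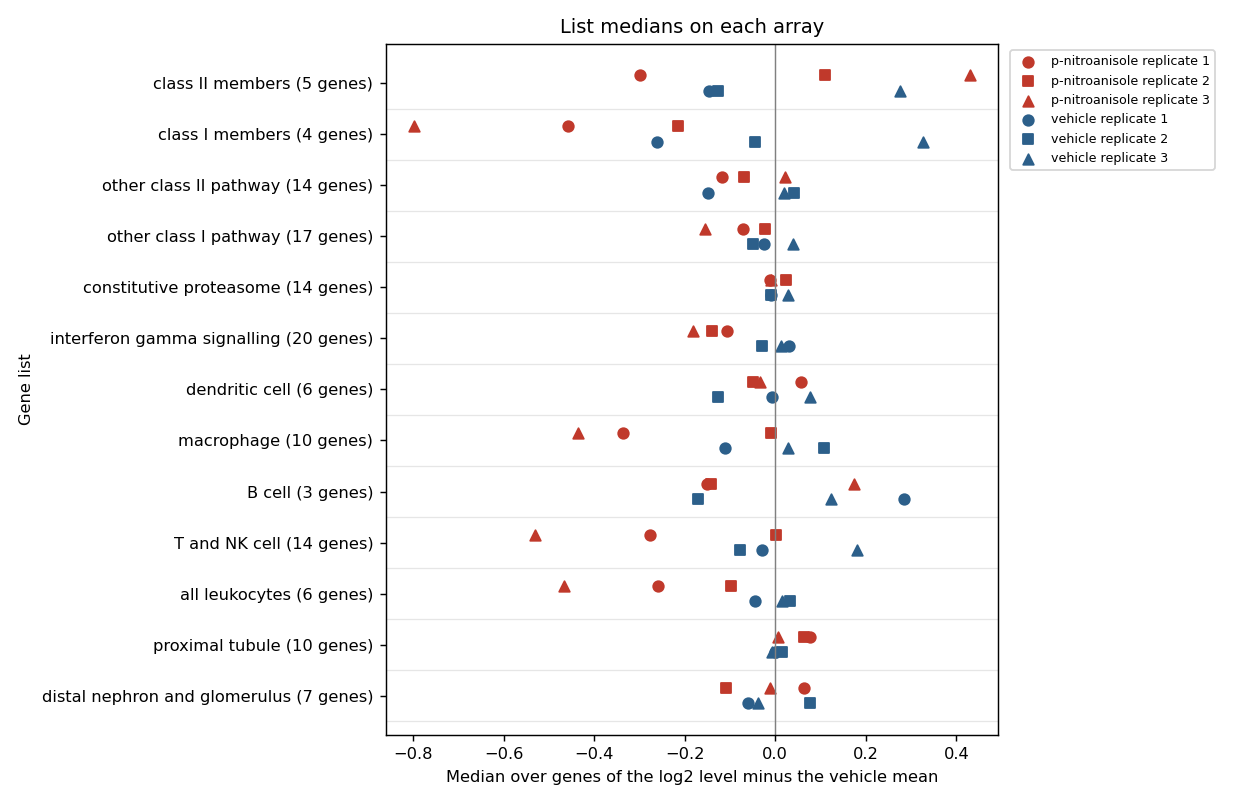
Median over the genes of each list of the log2 level minus the vehicle mean, with p-nitroanisole arrays (red) above vehicle arrays (blue) and 1 marker shape per replicate. Treated replicate 3 is lowest in the class I members (-0.80) and highest in the class II members (0.43).

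Over the 12077 named genes outside these lists with values on all arrays, likeness to the class II members was measured as the root mean square difference between centred log2 profiles over the 6 arrays. The closest were Adgrb1 (0.06), Jmjd4 (0.08), Tnp2 (0.08), Tshz3 (0.09) and Mchr1 (0.10), against a median of 0.30 over all genes compared. With 6 arrays and this many genes, close profiles are found for many shapes.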

How the data were processed

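Processed intensities come from the authors' deposited scanner files, in which Agilent Feature Extraction 10.7.1.1 subtracted the background and detrended it spatially, per the file headers. The submitters' processing notes name 10.7. The authors' deposited series matrix holds a linear signal that equals the processed intensity over 1 constant per array. It and the 75th percentile differed by at most 0.253%. The column medians of the table were 0.104, 0.103 and 0.106 for p-nitroanisole arrays and 0.101, 0.101 and 0.101 for vehicle arrays.

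Intensities were floored at 1, put on the log2 scale and scaled to the 75th percentile of the 61537 non-control probes of each array. Spots that served as controls or carried an outlier flag (0 to 4 an array) were dropped. Accessions were named through RefSeq (GRCr8), which named 28206 probes (45.84%). The fit used lmFit and a two-sided eBayes test (limma 3.58.1, R 4.3.3), every tested probe being a row, with Benjamini-Hochberg adjustment over 41219 probes. In counts over genes, each gene was read on its brightest tested probe by mean level.

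The members and lists were chosen with earlier results of these data known. Named were all members, the 2 largest differences of each other pathway list, the 2 brightest genes of each marker list and the 5 genes most like the class II members. Some items that this rule or the motif search covers are not reported here. Genes added after their values were seen are marked as such or are Psmb9, Psmb10, Calr, Canx, Cd52, Mrc1, Csf1r, Batf3, Cd86, Ifng, Xcr1, Cd80, Blk and Cr2. Of the listed genes, RT1-T24-1, Erap1, Nlrc5, Gbp4, Itgax, Flt3, Ms4a1 and Cd79a matched no probe by accession. The procedure was tested on simulated data. Alternatives covered scaling, background correction, dim-probe filters, 1 probe per gene, variance model, slide, replicate block and each array left out.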

Additional observations from a re-analysis of the deposited data

How the results depend on the processing

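The planned normexp correction on mean spot signals was not run, since the scanner files used here hold median signals; it was run on those, as chosen after seeing the data. Under all 16 alternatives 0 member probes were called. The count of called probes over the array was 30, and became 119 with normexp, 50 with a filter asking for detection in all 6 animals, 2 with no filter, 398 with a trended robust variance, 9 with the slide as a block, which equals leaving out p-nitroanisole replicate 3, and 0 to 9 leaving out each array in turn. The cause was not tested. With the replicate block, 1 probe was called. Over the tested probes the same-numbered animals showed no shared deviation from their group means (correlations -0.01, 0.04 and -0.01). With 3 arrays in each group this cannot show whether the numbers pair the animals. The class I median by gene stayed between -0.63 and -0.33 under the 16 alternatives, and the class II median between -0.11 and 0.27. Of 339 member probe values under alternatives, 322 kept their direction and 17 changed it, all on probes within 0.20 of 0. RT1-Da A_44_P991532 was -0.11 and Cd74 -0.045 with the slide as a block. B2m A_64_P092718 was -0.054 with quantile scaling, -0.055 with median scaling, -0.014 with normexp and -0.027 with the slide as a block. Leaving out single arrays gave ranges of -0.17 to 0.17 (RT1-Da A_44_P367688), -0.11 to 0.27 (RT1-Da A_44_P991532), -0.32 to 0.21 (RT1-Db1 A_44_P130513), -0.51 to 0.082 (RT1-Db1 A_64_P130578), -0.045 to 0.34 (Cd74) and -0.027 to 0.021 (B2m A_64_P092718). Outside the members, Cd83 was -0.0292 and Miox -0.043 with median scaling, Miox -0.10 and Umod -0.023 with quantile scaling, Miox -0.00271 with normexp and Pax5 -0.15 with the slide as a block. Single arrays left out gave -0.67 to 0.049 (RT1-DOb), -0.053 to 0.11 (Cd83), -0.15 to 0.26 (Pax5) and -0.019 to 0.046 (Miox). Median scaling moved the median over all probes to -0.05. Other list medians changed sign too: dendritic cell markers were 0.051 and B cell markers 0.11 with normexp, and, leaving out single arrays, B cell markers ran from -0.37 to 0.26, other class II genes reached 0.0062, distal nephron and glomerulus 0.0038 and constitutive proteasome genes 0.025. Dim probes limit RT1-Ba, for which only a bound was measured.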
